A study of Glycine soja with 14 samples.

Results

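The cell structure genes of the wild soybean (Glycine soja) root time course are 63 probe sets of the Affymetrix Soybean Genome Array, an array designed on cultivated soybean (Glycine max). They carry the category Cell Structure in the study's list of 1592 probe sets that changed over time. That list was chosen by a time course test on the same 14 arrays used here, so the changes below are those the choice rested on, and the calls among members describe them and do not test them. The category held 65 probe sets. An expansin and a xyloglucan endo-transglycosylase were left out as wall loosening genes, and 0 were left out for a gene symbol of their own. All 63 were above the background level and within the 28567 probe sets tested, of 37594 soybean probe sets on the array. The members just inside the study's limit were protein F24B22.30, whose 7 time means spanned 1.97 on the log2 scale, and the undescribed GmaAffx.78987.1.S1_at, whose means spanned 2.19. Values just outside the limit are not used here.

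The roots came from 21-day-old seedlings of line G07256 grown in dilute Hoagland's nutrient solution, and the 3 cm next to the root apex were taken from 3 pooled plants for each array. This age and a light period of 12 h are those of the sample labels, and the paper's methods give other values for both. Unstressed roots were taken at 0 h. Seedlings moved to the same solution with 50 mmol/L NaHCO3, at pH 8.5, were harvested after 0.5, 1, 3, 6, 12 or 24 h, with 2 biological replicates at each time. Unstressed roots were analysed at 0 h only, so stress, time since the transfer and time of day cannot be told apart, and a pool of whole root ends cannot tell fewer cells of a type from less RNA per cell.

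The wall of a growing root cell is a network of cellulose microfibrils, held together by hemicelluloses, embedded in pectin and reinforced by structural glycoproteins. Cellulose is spun out by synthase complexes in the plasma membrane, whose paths are guided by microtubules. Pectin is delivered in methylated form, and methylesterases remove the methyl groups in the wall, which lets the chains be bound by calcium or cut by polygalacturonases. Older walls may be stiffened by lignin, for which caffeoyl-CoA O-methyltransferases make precursors. Actin filaments and the myosins that run along them carry vesicles with wall material to the surface, most visibly in root hairs. NaHCO3 gives a root sodium, bicarbonate and a high pH together.

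By their descriptions in the study's tables, the members fell into 8 role groups. There were 4 of the cellulose synthase family, 5 pectin enzymes, 13 glycosidases, 4 wall glycoproteins, 2 caffeoyl-CoA O-methyltransferases, 8 proteins of the cytoskeleton, 15 others with a description and 12 without one. The descriptions name the most similar proteins of other plants, so Arabidopsis names below point to similarity. Of the 63 probe sets, 12 carry a numbered locus symbol in the array's annotation and the rest none. For 7 members the probe set name ends in s and for 2 in x, marks that Affymetrix gives to probes that can match more than 1 gene, so the values of these 9 may mix relatives. No sequence is shown for any member.

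The replicates of 4 times stood apart in nodulins, proteins of the root nodules that legumes form with rhizobia. Over 13 nodulin probe sets the mean log2 value was 9.69 on replicate 1 and 4.03 on replicate 2 at 0.5 h, 8.17 and 4.74 at 1 h, 9.58 and 6.93 at 3 h, then 8.19 and 4.83 at 6 h. At 0, 12 and 24 h the 6 arrays lay between 8.13 and 9.78. Nodulin N-44 read 12.85 and 1.16 on the arrays of 0.5 h, and 11.18 and 5.89 on those of 6 h. The gaps kept 10 of the 13 from being tested, and of the other 3, N-36A was higher at 12 h than at 6 h by 2.16 and ENOD40B by 1.81, with limma adjusted p-values of 0.138 and 0.0928. The part of nodules in the results was not tested.

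More members were higher than lower at 3 and 6 h, and more were lower than higher at 12 and 24 h. Values are log2 intensities, and a member is called higher or lower than at 0 h where limma's p was under 0.05 and the adjusted p over all 28567 tested probe sets was under 0.15. At 0.5 h 1 member was called higher and 1 lower, where 2.26% and 3.27% of all tested probe sets were called. At 1 h the counts were 0 and 0 in this fit, against 0.179% and 0.375% of all, while 18 members had an unadjusted limma p under 0.05. The share of all tested probe sets at that unadjusted limit was not counted, here or below. At 3 h 22 members were called higher and 6 lower, with 5% and 12% of all tested probe sets. At 6 h the counts were 29 and 9, with 8.67% and 12.1% of all. At 12 h they turned to 16 and 27, with 7.95% and 16.4% of all. At 24 h 8 members were called higher and 33 lower, with 6.07% and 19.6% of all. From 6 h to 12 h 34 members were called lower and 12 higher, with 18.6% and 15.3% of all called in those directions. Since these members were picked for changing, nothing is read from the distance to those shares. The same holds for the counts by role group below. The 28 calls at 3 h numbered 5 and 7 without 0 h replicates 1 and 2 and 10 and 6 without 3 h replicates 1 and 2, and the 38 calls at 6 h numbered 25 without 0 h replicate 1 and 24 without 6 h replicate 2. Without the 4 arrays low in nodulins, which leaves 1 array at each of those times with its spread taken from the other times, 0 members were called at 3 h and 14 at 6 h instead of 28 and 38, and 20 and 31 had an unadjusted limma p under 0.05. The members called at 3 and 6 h kept their direction without those arrays. Since 1 of the 2 stress arrays behind each call stayed in, this is not separate support. The median change of the members without the arrays low in nodulins was 0.23 at 3 h and 0.46 at 6 h. Counts at 12 and 24 h were 34 and 30 instead of 43 and 41.

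**Figure D1:**
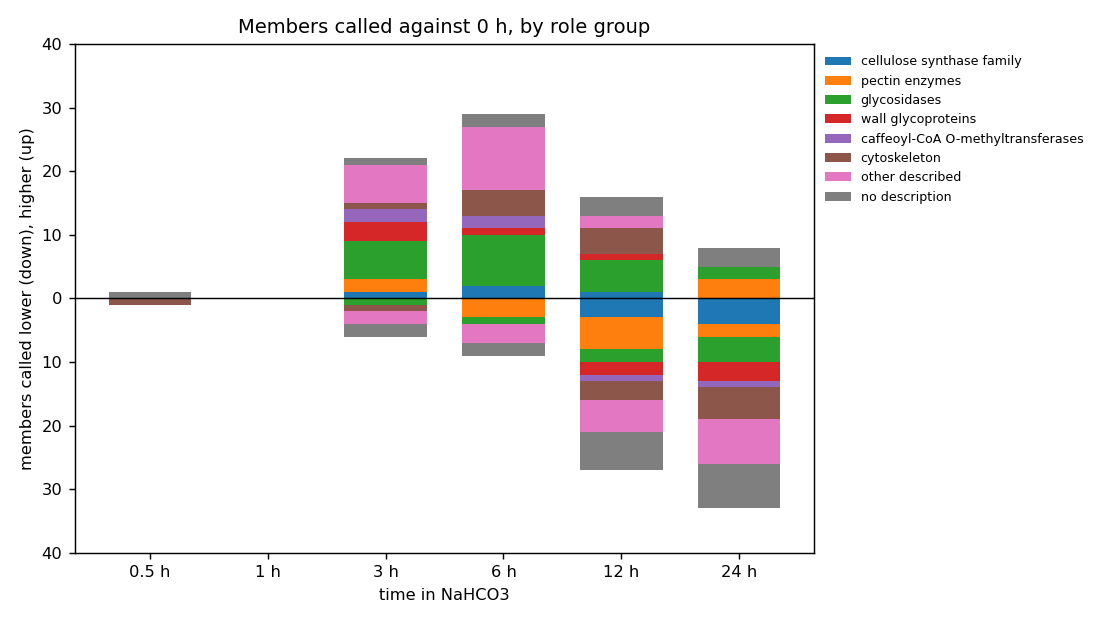
Number of the 63 members called higher (bars above 0) or lower (bars below 0) than at 0 h at each stress time, coloured by role group. Higher members lead at 3 h (22 against 6) and 6 h (29 against 9), and lower members at 12 h (27 against 16) and 24 h (33 against 8).

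The median change of the members was 0.19 at 3 h, 0.44 at 6 h, then -0.26 at 12 h and -0.48 at 24 h on the log2 scale. The other categories of the study's list, with 1526 tested probe sets, had medians of 0.07, 0.14, -0.62 and -0.45 at those times. All tested probe sets had medians of -0.14, -0.05, -0.04 and -0.13. With quantile normalization or median centring of the arrays the median of all tested probe sets at 24 h moved from -0.13 to 0.04 or 0.09, and the calls among members at 12 h from 16 higher and 27 lower to 20 and 23 or 21 and 24. Of all calls, 29.4%, 41.8%, 32.7% and 23.7% were higher at 3, 6, 12 and 24 h, and 47.8%, 49.8%, 52.9% and 49.1% under quantile normalization. The median gap between the 2 arrays of a time was 0.1 to 0.23 over the members and 0.16 to 0.31 over all tested probe sets. A choice by a test on these same arrays favours members with small gaps. At 6 h both arrays lay above both 0 h arrays for 39 members and below them for 17. At 24 h 10 members lay above and 43 below, and 10 overlapped with 0 h. The share of all tested probe sets lying apart in this way was not counted. Since the members were picked for changing on these arrays, nothing is read from these counts.

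**Figure D2:**
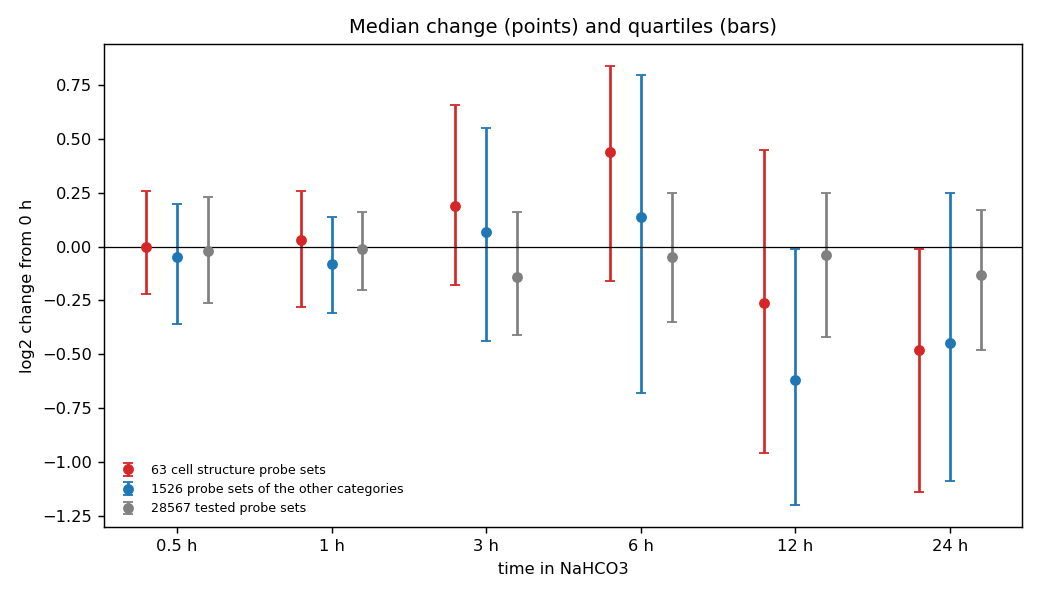
Log2 change from 0 h at each stress time, as median (points) and lower and upper quartile (bars), for the 63 cell structure members (red), the 1526 tested probe sets of the other categories in the study's list (blue) and all 28567 tested probe sets (grey). The member median is 0.44 at 6 h and -0.48 at 24 h.

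Single members followed a few courses. Of the 63, 34 were called higher at 3 or 6 h and 38 lower at 12 or 24 h, and 19 were in both counts. Only 5 ran the other way, lower at 3 or 6 h and higher at 12 or 24 h, and 3 of these were pectin enzymes. The first 3 of these courses held 54%, 60.3% and 30.2% of the members, 42%, 71.2% and 28% of the other categories and 10.9%, 27.5% and 4.06% of all tested probe sets, and the opposite course 7.94%, 14% and 2.61%. The time means peaked at 6 h in 23 members, at 3 h in 14 and at 12 h in 14, and were lowest at 24 h in 33. A peak at 6 h was thus found in 36.5% of members, 32.8% of the other categories and 17% of all tested probe sets, and a low at 24 h in 52.4%, 40.9% and 26.5%. The span from the lowest to the highest time mean ran from 0.61 to 4.26, or to 3.71 with arrays under background set to that level, with a median of 1.73, beside 1.8 in the other categories of the list and 0.91 over all tested probe sets.

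**Figure D3:**
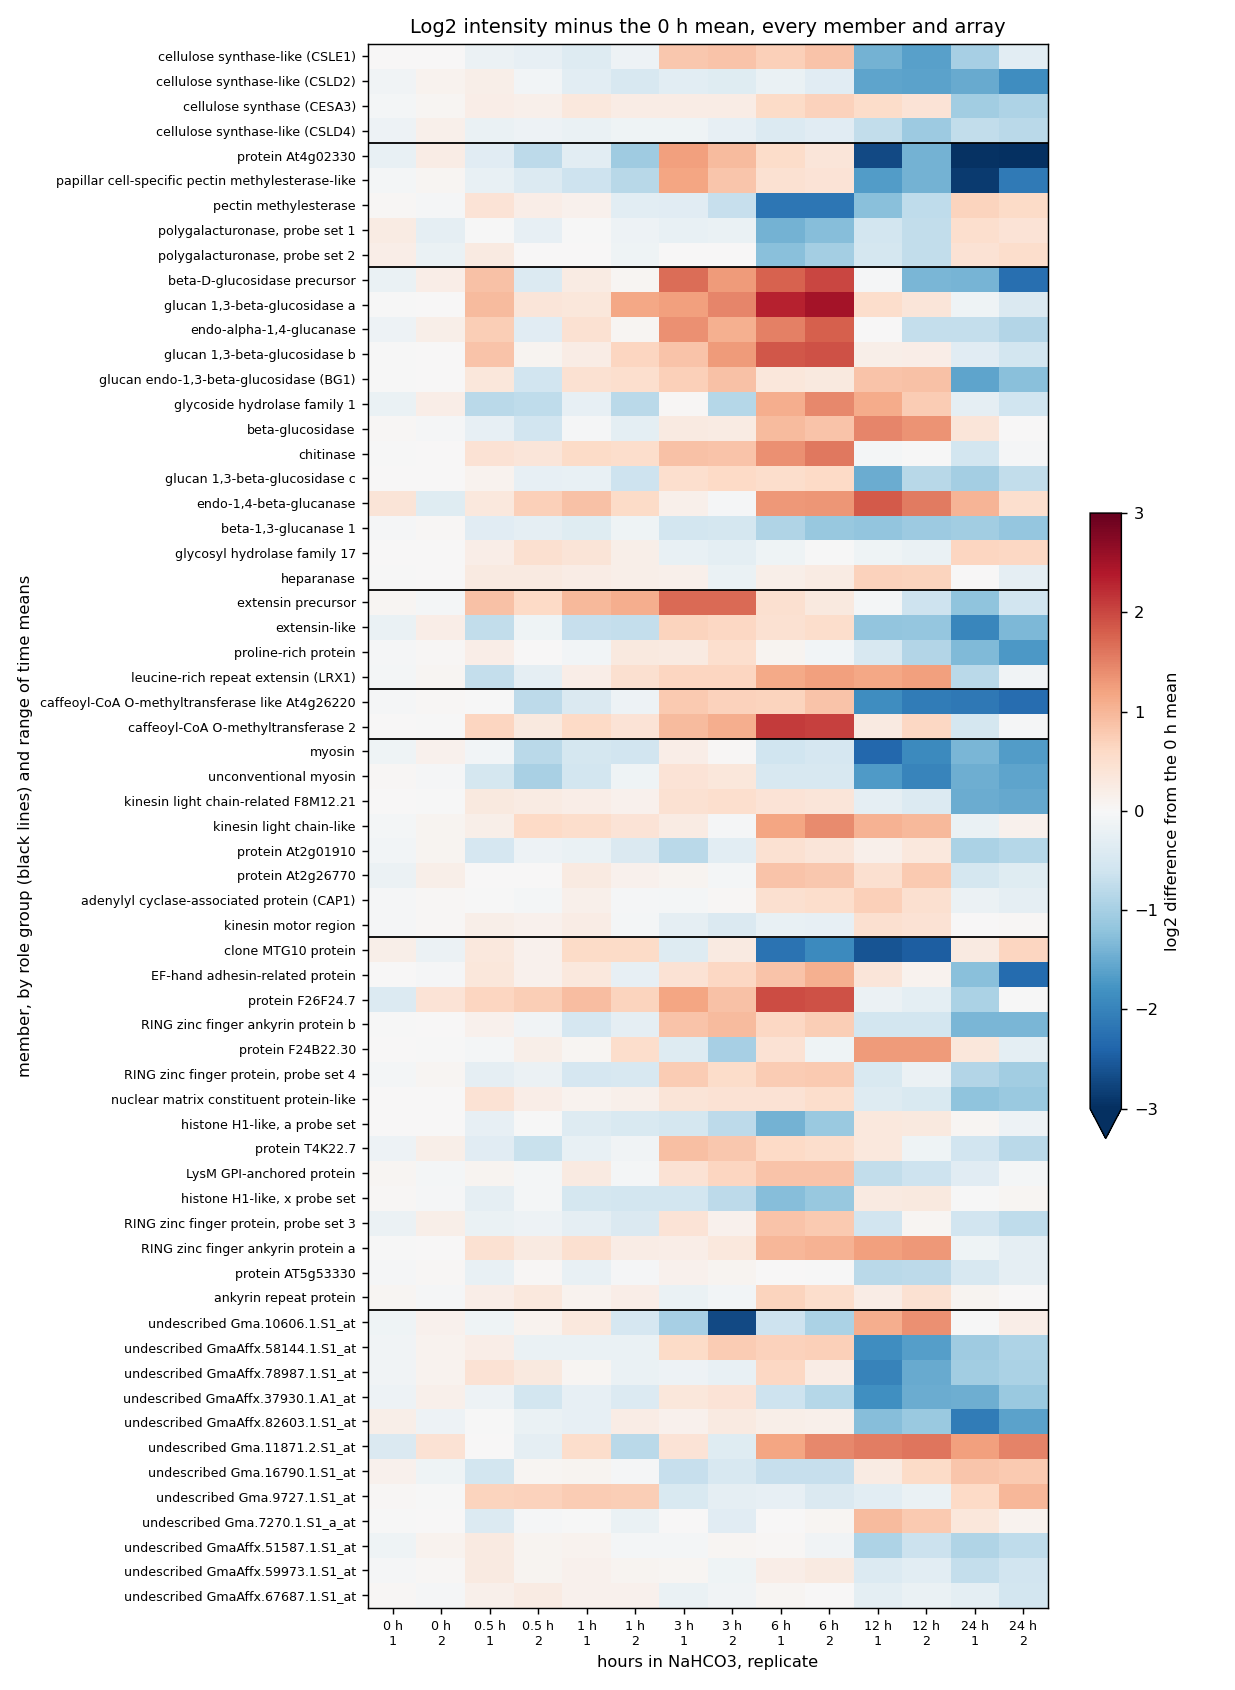
Log2 intensity of every member on every array minus that member's mean at 0 h, in rows by role group (separated by black lines) and in columns by time and replicate. Red is above and blue below the 0 h mean, and values below -3 take the darkest blue. Most rows are red at 3 and 6 h and blue at 12 and 24 h, while pectin methylesterase, the polygalacturonases, clone MTG10 protein and the histone H1-like probe sets are blue at 6 h.

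Some properties of the arrays changed with time. The hybridization controls had mean log2 values as low as 9.447 on 0.5 h replicate 1 and 9.289 on replicate 2 of 12 h, against 10.09 to 10.75 on the other 12 arrays. Without these 2 arrays together the calls at 12 h numbered 37 instead of 43, and those at 6 h 42 instead of 38. The spiked poly-A controls had mean log2 values of 5.602 and 5.644 at 0 h, 7.487 and 7.917 at 1 h, 8.059 and 7.853 at 3 h, then 5.634 and 5.679 at 6 h, so they differed between times far more than between replicates. Leaf genes that the annotation names by symbol, 12 probe sets of CAB3, PSAD and rubisco activase, had a mean log2 value of 7.22 and 7.09 at 0 h, 6.11 and 5.83 at 6 h, 5.01 and 5.43 at 12 h, then 7.37 and 7.81 at 24 h, and 9 of them were tested. For 3 of the 5 probe sets of CAB3, a gene for a chlorophyll a/b binding protein, the level at 12 h was lower than at 0 h by 5.21 to 6.06 on the log2 scale. No gene of the root marker list carries a symbol here, so the labelled tissue was not checked against it. The part of these in the results was not tested.

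All 4 members of the cellulose synthase family were lower at 24 h than at 0 h, 3 of them already at 12 h. CESA3, in Arabidopsis a subunit of the complex that makes the cellulose of the primary wall, first rose. Its log2 intensities were 8.32 and 8.44 at 0 h, 8.57 and 8.54 at 0.5 h, 8.7 and 8.61 at 1 h, 8.61 and 8.61 at 3 h, 8.96 and 9.07 at 6 h, 8.94 and 8.79 at 12 h, then 7.33 and 7.46 at 24 h. The change was 0.64 at 6 h and -0.99 at 24 h with an SE of 0.14, that is 1.55-fold higher and 1.98-fold lower, and its arrays at 24 h lay below all others. The call at 12 h, with a change of 0.48, was lost without 0 h replicate 1, where it was 0.43.

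CSLE1, a cellulose synthase-like protein, had the widest span of the group. The readings were 7.33 and 7.34 at 0 h, 7.16 and 7.08 at 0.5 h, 6.95 and 7.17 at 1 h, 8.14 and 8.19 at 3 h, 8.04 and 8.18 at 6 h, 5.91 and 5.7 at 12 h, then 6.34 and 7.01 at 24 h. It was higher at 3 h by 0.84 and at 6 h by 0.78, then lower at 12 h by 1.53, with an SE of 0.21. Between 6 h and 12 h it dropped by 2.31. The 3 h call was lost without any 1 of the 4 arrays of 0 h and 3 h, with changes of 0.81 to 0.86, and the 6 h call without 0 h replicate 1 or 6 h replicate 2, with 0.71 to 0.78. Its arrays at 24 h were 0.67 apart in log2 and the call there, with a change of -0.66, was lost without either 0 h array or without 24 h replicate 1, with -0.66 to -0.33, and under median centring, where the change was -0.44.

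Both cellulose synthase-like D probe sets were lower late and had no early rise. The D class is known from Arabidopsis for tip-growing cells such as root hairs. For CSLD2 the values were 7.64 and 7.86 at 0 h, 7.92 and 7.66 at 0.5 h, 7.44 and 7.26 at 1 h, 7.44 and 7.38 at 3 h, 7.55 and 7.41 at 6 h, 6.16 and 6.15 at 12 h, then 6.23 and 5.89 at 24 h. The 4 arrays of 12 and 24 h lay below all others. The change was -1.6 at 12 h and -1.69 at 24 h with an SE of 0.17, a 3.02-fold and a 3.23-fold lower level. CSLD4 was lower by 0.91 at 12 h and by 0.78 at 24 h, with an SE of 0.17. Over the 7 time means the 2 probe sets had a Pearson correlation of 0.94.

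The pectin enzymes split into a pair of opposite courses. All 5 were lower at 12 h, but at 24 h 2 were lower still and 3 were above 0 h. The first course belonged to probe sets described as protein At4g02330, in Arabidopsis a pectin methylesterase gene, and as similar to a papillar cell-specific pectin methylesterase. Protein At4g02330 had log2 intensities of 6.14 and 6.6 at 0 h, 6.02 and 5.58 at 0.5 h, 6.06 and 5.31 at 1 h, 7.61 and 7.33 at 3 h, 6.92 and 6.74 at 6 h, 3.67 and 4.95 at 12 h, then 3.41 and 3.0 at 24 h. The papillar cell-specific type had 6.13 and 6.26 at 0 h, 5.97 and 5.8 at 0.5 h, 5.57 and 5.36 at 1 h, 7.38 and 7.03 at 3 h, 6.65 and 6.62 at 6 h, 4.52 and 4.79 at 12 h, then 3.34 and 4.07 at 24 h. In both, the arrays of 3 h were the highest and those of 24 h the lowest of all 14.

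The change of At4g02330 was 1.1 at 3 h, -2.06 at 12 h and then -3.16 at 24 h, with an SE of 0.4. Both of its arrays at 24 h and 1 at 12 h lay under 3.91, the background level of log2 intensity, so the level at 24 h is given as at least 5.5-fold lower than at 0 h and at least 11.8-fold lower than at 3 h. The papillar cell-specific type changed by 1.01 at 3 h, -1.54 at 12 h and then -2.5 at 24 h with an SE of 0.24, but 1 of its 24 h arrays was under the background level, so the level there is given as at least 4.63-fold lower than at 0 h. The call of At4g02330 at 3 h was lost without any 1 of 6 arrays, those of 0, 3 and 6 h, with changes of 0.87 to 1.33, and when replicate number was added as a block. That of the papillar cell-specific type at 3 h was lost without either 0 h array or without 3 h replicate 1, with 0.83 to 1.07.

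The other course was a trough at 6 h and a level above the start at 24 h. It was shared by a pectin methylesterase and by both probe sets of a polygalacturonase, the enzyme that cuts pectin chains once they have lost their methyl groups. Pectin methylesterase had 7.69 and 7.61 at 0 h, 8.07 and 7.85 at 0.5 h, 7.78 and 7.33 at 1 h, 7.31 and 6.95 at 3 h, 5.49 and 5.49 at 6 h, 6.4 and 6.89 at 12 h, then 8.31 and 8.23 at 24 h. Its change was -2.16 at 6 h, a 4.48-fold lower level, -1.01 at 12 h and 0.62 at 24 h, with an SE of 0.22. Both arrays at 6 h were the lowest of the 14 and both at 24 h the highest. The 24 h call was lost without any 1 of the 4 arrays of 0 h and 24 h, with changes of 0.58 to 0.66.

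The polygalacturonase probe sets, which stem from 1 sequence cluster of the array, had changes of -1.34 and -1.14 at 6 h, -0.64 and -0.63 at 12 h, then 0.46 and 0.48 at 24 h, with SEs of 0.19 and 0.18. They followed each other over the time means with a correlation of 0.98. The calls at 24 h were the least firm. For probe set 1 the call was lost in 9 of the 14 fits without 1 array, with 0.2 to 0.51, and for probe set 2 in 3 of them, without 0 h replicate 2 or either 24 h array, with 0.28 to 0.53. At 12 h both calls were lost without 0 h replicate 1 or 12 h replicate 2, with -0.55 to -0.38 and -0.52 to -0.43. Between the papillar cell-specific type and pectin methylesterase the correlation over the time means was -0.44.

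**Figure D4:**
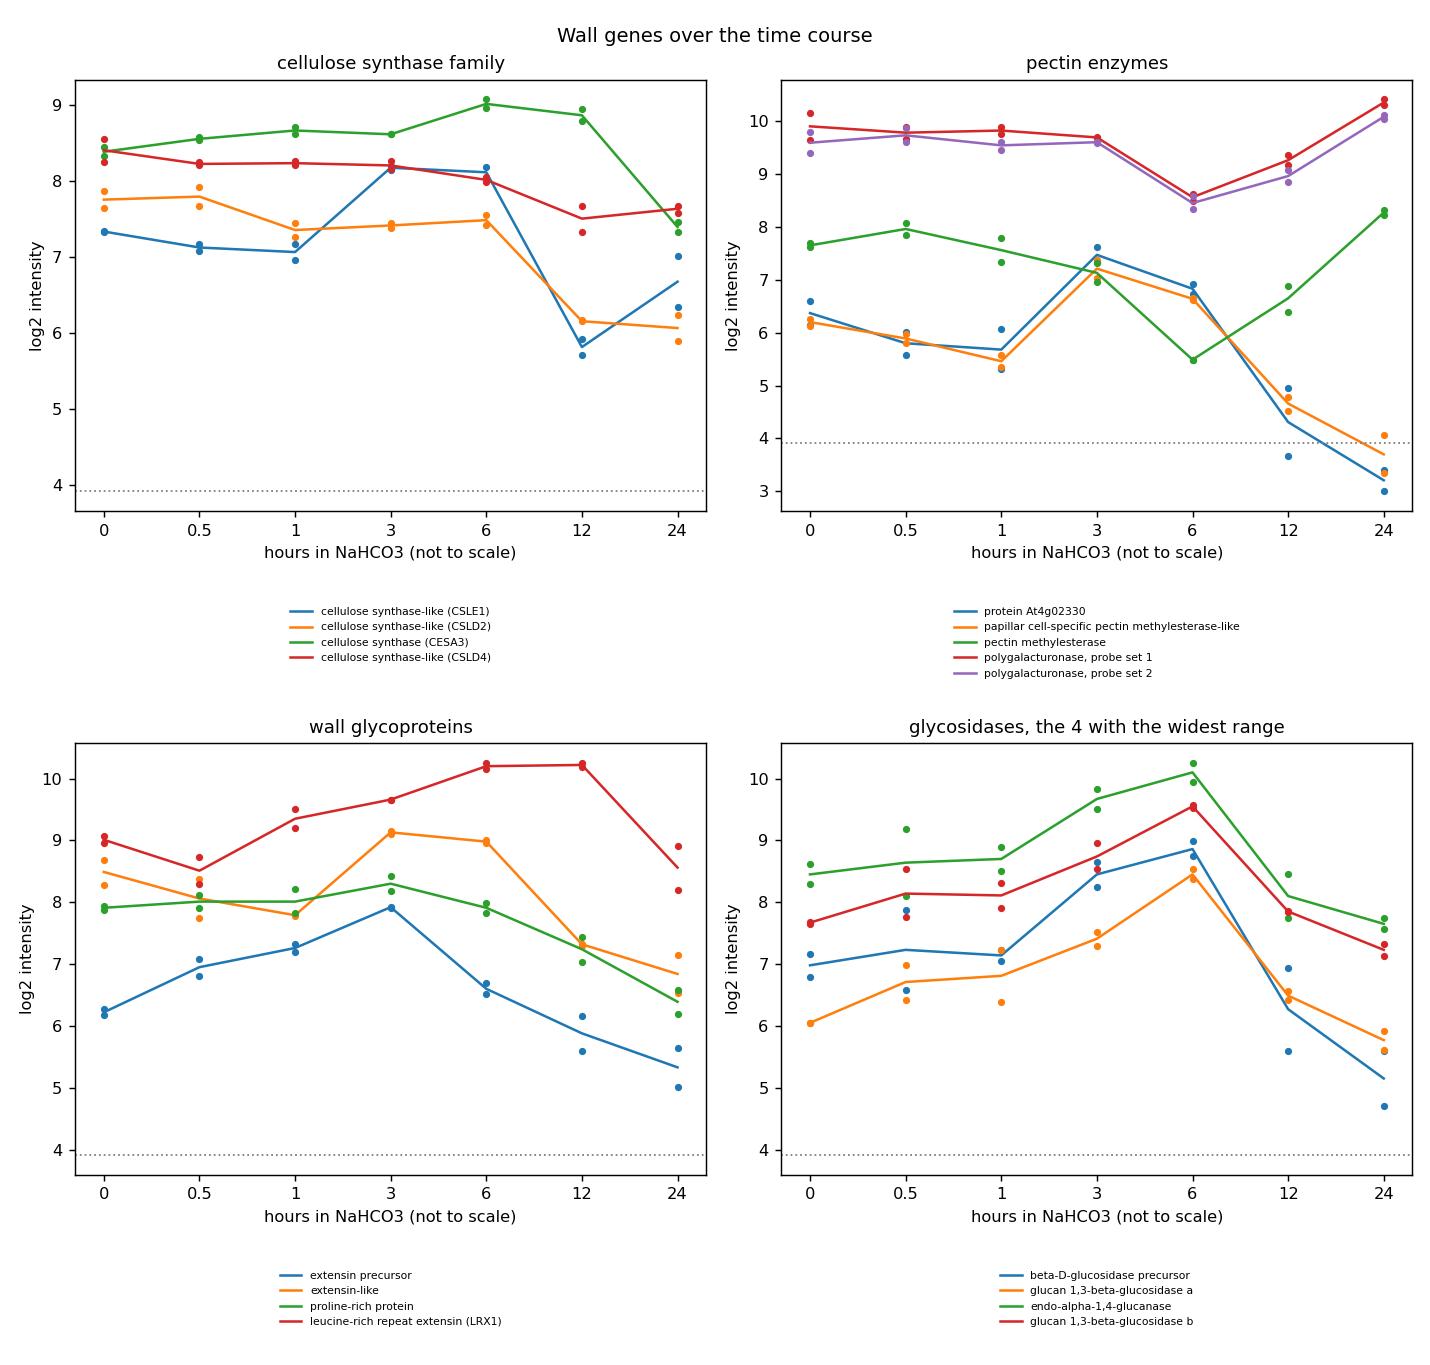
Log2 intensity over the 7 time points for the cellulose synthase family, the pectin enzymes, the wall glycoproteins and the 4 glycosidases with the widest range. Points are single arrays, lines join the means of the 2 arrays, the time axis is not to scale and the dotted line is the background level of 3.91. At 24 h protein At4g02330 lies under that line, while pectin methylesterase and the polygalacturonases are above their 0 h levels.

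Among the 13 glycosidases the early rise was the most common course. At 6 h 8 were called higher and 1 lower, with a median change of 1.27 and with 8.67% and 12.1% of all tested probe sets called. At 24 h 2 were higher and 4 lower, with a median of -0.44 and with 6.07% and 19.6% of all called. The widest span of the group belonged to a beta-D-glucosidase precursor, of a class that releases glucose from small glucosides. Its values were 6.79 and 7.17 at 0 h, 7.87 and 6.58 at 0.5 h, 7.22 and 7.05 at 1 h, 8.65 and 8.25 at 3 h, 8.74 and 8.99 at 6 h, 6.94 and 5.6 at 12 h, then 5.59 and 4.71 at 24 h. The change was 1.47 at 3 h, 1.88 at 6 h and then -1.83 at 24 h, but the SE of 0.49 was large and the replicates at 0.5 and 12 h were over 1 apart. The 3 h call was lost without any 1 of the 4 arrays compared, with 1.26 to 1.67, the 6 h call without 0 h replicate 1 or 6 h replicate 2, with 1.69 to 1.76, and the 24 h call without 0 h replicate 2 or 24 h replicate 2, with -1.64 to -1.39.

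There were 3 probe sets described as glucan 1,3-beta-glucosidase, an enzyme class that trims beta-1,3-glucans such as callose. Among them was the largest rise of the group, that of probe set a at 6 h. The first, probe set a, had 6.04 and 6.05 at 0 h, 6.99 and 6.42 at 0.5 h, 6.39 and 7.22 at 1 h, 7.29 and 7.52 at 3 h, 8.37 and 8.54 at 6 h, 6.57 and 6.42 at 12 h, then 5.92 and 5.61 at 24 h. Its level rose by 1.36 at 3 h and by 2.41 at 6 h, a 5.3-fold level, with an SE of 0.27. At 12 h the change of 0.45 was not called, though both arrays still lay above those of 0 h. Probe set b was higher by 1.07 at 3 h and 1.88 at 6 h, with an SE of 0.25, and had a correlation of 0.99 with the first over the time means. Probe set c changed by 0.55 at 6 h, which was not called, and by -1.16 at 12 h and -0.89 at 24 h, which were, and its correlations with a and b were 0.71 and 0.77. Under quantile normalization its changes of 0.68 at 3 h and 0.63 at 6 h were called. The 3 h call of a was lost without 3 h replicate 2, where it was 1.25, and that of b without either 0 h array or 3 h replicate 2, with 0.86 to 1.09.

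A probe set described as an endo-alpha-1,4-glucanase shared the early rise. Its intensities read 8.29 and 8.62 at 0 h, 9.18 and 8.1 at 0.5 h, 8.9 and 8.5 at 1 h, 9.83 and 9.51 at 3 h, 9.95 and 10.25 at 6 h, 8.45 and 7.74 at 12 h, then 7.74 and 7.56 at 24 h. The level rose by 1.22 at 3 h and 1.65 at 6 h with an SE of 0.35, and its 4 arrays of those times were the highest of the 14. The 3 h call was lost without any 1 of the 4 arrays compared, with 1.06 to 1.38. Outside the 4 widest of the group, a chitinase, of a class best known for cutting the chitin of fungal walls, rose by 0.86 at 3 h and 1.48 at 6 h and was back at -0.04 at 12 h, with an SE of 0.18.

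The chitinase and the 7 other glycosidases that follow are outside the rule for named members. Several peaked later. An endo-1,4-beta-glucanase, of the class that cuts cellulose-like chains, was higher by 1.3 at 6 h, 1.69 at 12 h and then 0.76 at 24 h, with an SE of 0.27. A beta-glucosidase was higher by 0.9 at 6 h and 1.41 at 12 h, with an SE of 0.18. A glycoside hydrolase of family 1 was higher by 1.27 at 6 h and 0.93 at 12 h, with an SE of 0.31, and a probe set described as heparanase, named for an enzyme of animals, by 0.67 at 12 h, with an SE of 0.16. BG1, a glucan endo-1,3-beta-glucosidase, was higher by 0.8 at 3 h and 0.88 at 12 h and then lower by 1.42 at 24 h, with an SE of 0.25. The BG1 calls at 3 and 12 h were lost in 4 and 2 of the fits without 1 array, with 0.71 to 0.89 and 0.86 to 0.89. Those of the family 1 hydrolase at 6 and 12 h were lost in 2 fits each, with 1.06 to 1.09 and 0.73 to 0.75, and that of the endo-1,4-beta-glucanase at 24 h in 2, with 0.39 to 0.51.

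Only 1 of the 63 members was called lower at all of 3, 6, 12 and 24 h, and it was beta-1,3-glucanase 1. It was lower by 0.53, 1.02, 1.14 and 1.11 at those times, with an SE of 0.15. Its 3 h call was lost without any 1 of the 4 arrays compared, with -0.57 to -0.5, and under median centring, with -0.36. The last glycosidase, of family 17, was called at 24 h alone, where it was higher by 0.64, with an SE of 0.15.

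Of the 4 wall glycoproteins, 3 rose at 3 h and 3 were lower at 24 h. Extensins are rod-like, hydroxyproline-rich proteins that are cross-linked into the wall. The extensin precursor had 6.28 and 6.17 at 0 h, 7.09 and 6.81 at 0.5 h, 7.19 and 7.32 at 1 h, 7.91 and 7.93 at 3 h, 6.69 and 6.52 at 6 h, 6.16 and 5.59 at 12 h, then 5.02 and 5.65 at 24 h. It was higher by 1.7 at 3 h, a 3.24-fold level, and lower by 0.89 at 24 h, with an SE of 0.24, and had passed its peak by 6 h, when the change was 0.38. The 24 h call was lost if 0 h replicate 1 or 24 h replicate 1 was left out, with -0.83 to -0.57. With intensities floored at 16 the extensin precursor was also called at 0.5 and 1 h, by 0.73 and 1.03.

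A further extensin-like probe set had 8.28 and 8.69 at 0 h, 7.75 and 8.37 at 0.5 h, 7.79 and 7.78 at 1 h, 9.16 and 9.11 at 3 h, 8.95 and 9.01 at 6 h, 7.3 and 7.33 at 12 h, then 6.54 and 7.14 at 24 h. It was higher by 0.64 at 3 h and lower by 1.17 at 12 h and 1.65 at 24 h, with an SE of 0.25. The 3 h call was lost in 8 of the 14 fits without 1 array, with 0.44 to 0.85. The proline-rich protein had 7.88 and 7.94 at 0 h, 8.11 and 7.91 at 0.5 h, 7.82 and 8.21 at 1 h, 8.18 and 8.42 at 3 h, 7.99 and 7.83 at 6 h, 7.44 and 7.04 at 12 h, then 6.58 and 6.19 at 24 h. No early change of it was called, and it was lower by 0.67 at 12 h and 1.52 at 24 h, with an SE of 0.21. The 12 h call was lost without either 0 h array or 12 h replicate 2, with -0.7 to -0.47, and under quantile normalization, with -0.51.

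LRX1, in Arabidopsis a leucine-rich repeat extensin of the root hair wall, had a later peak. The rise was 0.64 at 3 h, 1.19 at 6 h and then 1.21 at 12 h, with an SE of 0.24. At 24 h the change was -0.45 and was not called. Its 3 h call was lost in 6 of the fits without 1 array, with 0.59 to 0.7.

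The 2 caffeoyl-CoA O-methyltransferases, which methylate a precursor of lignin, were both higher at 3 and 6 h and parted afterwards. Caffeoyl-CoA O-methyltransferase 2 had 9.67 and 9.64 at 0 h, 10.3 and 9.96 at 0.5 h, 10.26 and 10.08 at 1 h, 10.6 and 10.74 at 3 h, 11.76 and 11.72 at 6 h, 9.92 and 10.29 at 12 h, then 9.14 and 9.63 at 24 h. This probe set rose by 1.01 at 3 h and 2.08 at 6 h with an SE of 0.21, and the 4.23-fold level at 6 h fell to 0.44 above 0 h at 12 h. The one like At4g26220 had 7.97 and 8.03 at 0 h, 7.99 and 7.21 at 0.5 h, 7.57 and 7.85 at 1 h, 8.79 and 8.68 at 3 h, 8.66 and 8.86 at 6 h, 6.13 and 5.91 at 12 h, then 5.85 and 5.71 at 24 h. Its level rose by 0.73 and 0.76 at 3 and 6 h and then lower by 1.98 at 12 h and 2.22 at 24 h, with an SE of 0.24. Its arrays of 12 and 24 h lay below all others, and the drop from 6 h to 12 h was 2.74 on the log2 scale. The calls at 3 and 6 h of the latter were lost without any 1 of the 4 arrays compared, with 0.68 to 0.78 and 0.66 to 0.86. Without 3 h replicate 2 the 3 h call of the former, then 0.94, was lost. At 12 h the former was also called under quantile normalization and median centring, with changes of 0.52 and 0.56.

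Among the 8 cytoskeleton members, both myosins, motors of actin filaments, were lower at 12 and 24 h, while 4 other members were higher at 12 h. The probe set described as myosin had 7.13 and 7.37 at 0 h, 7.16 and 6.43 at 0.5 h, 6.72 and 6.68 at 1 h, 7.46 and 7.29 at 3 h, 6.66 and 6.75 at 6 h, 4.89 and 5.35 at 12 h, then 5.87 and 5.57 at 24 h. The unconventional myosin had 7.36 and 7.29 at 0 h, 6.79 and 6.34 at 0.5 h, 6.77 and 7.19 at 1 h, 7.73 and 7.66 at 3 h, 6.85 and 6.85 at 6 h, 5.62 and 5.33 at 12 h, then 5.86 and 5.74 at 24 h. In both, the 4 arrays of 12 and 24 h lay below all others. The changes were -2.13 and -1.85 at 12 h and -1.53 and -1.52 at 24 h with SEs of 0.25 and 0.2, so that the levels at 12 h were 4.38-fold and 3.61-fold lower. Their correlation over the time means was 0.97. The unconventional myosin was the 1 member called lower at 0.5 h, by 0.76, a call lost in 5 of the fits without 1 array, with -0.8 to -0.54, and under quantile normalization, with -0.71.

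A kinesin light chain-related probe set, F8M12.21, was lower late as well. Kinesins run along microtubules, and light chains bind their cargo in animals. F8M12.21 read 6.62 and 6.59 at 0 h, 6.91 and 6.85 at 0.5 h, 6.81 and 6.75 at 1 h, 7.07 and 7.12 at 3 h, 7.02 and 6.98 at 6 h, 6.33 and 6.2 at 12 h, then 5.12 and 5.08 at 24 h. Its change was 0.49 at 3 h, 0.4 at 6 h, then -0.34 at 12 h and then -1.51 at 24 h, with an SE of 0.13. The small calls at 3, 6 and 12 h were lost in 4, 4 and 7 of the fits without 1 array, with 0.46 to 0.52, 0.37 to 0.42 and -0.36 to -0.28, and the 12 h call under quantile normalization and median centring as well, with -0.22 and -0.23.

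The other kinesin light chain-like probe set was higher by 1.3 at 6 h and 1.01 at 12 h, with an SE of 0.2, and its correlation with F8M12.21 over the time means was 0.33. CAP1, a cyclase-associated protein that binds actin monomers, was higher by 0.5 at 6 h and 0.6 at 12 h, with an SE of 0.15. Protein At2g26770, in Arabidopsis a plant-specific actin-binding protein, was higher by 0.83 and 0.64 at these times and lower by 0.45 at 24 h, with an SE of 0.17. Protein At2g01910, in Arabidopsis a microtubule-binding MAP65 protein, was lower by 0.57 at 3 h and 0.89 at 24 h, with an SE of 0.2. Its change of 0.41 at 6 h was called only under quantile normalization and median centring, with 0.49 and 0.51, where the 3 h call was lost. A kinesin motor region was higher by 0.45 at 12 h, with an SE of 0.15. The calls of CAP1 at 6 h, of At2g26770 at 12 h and of the kinesin motor region at 12 h were lost in 4, 2 and 3 of the fits without 1 array, with 0.46 to 0.54, 0.46 to 0.49 and 0.42 to 0.49. Those of At2g26770 at 24 h and At2g01910 at 3 h were lost in 5 fits each, with -0.53 to -0.27 and -0.65 to -0.32. Under quantile normalization and median centring the 24 h call of At2g26770 was lost too, with -0.27 and -0.23.

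**Figure D5:**
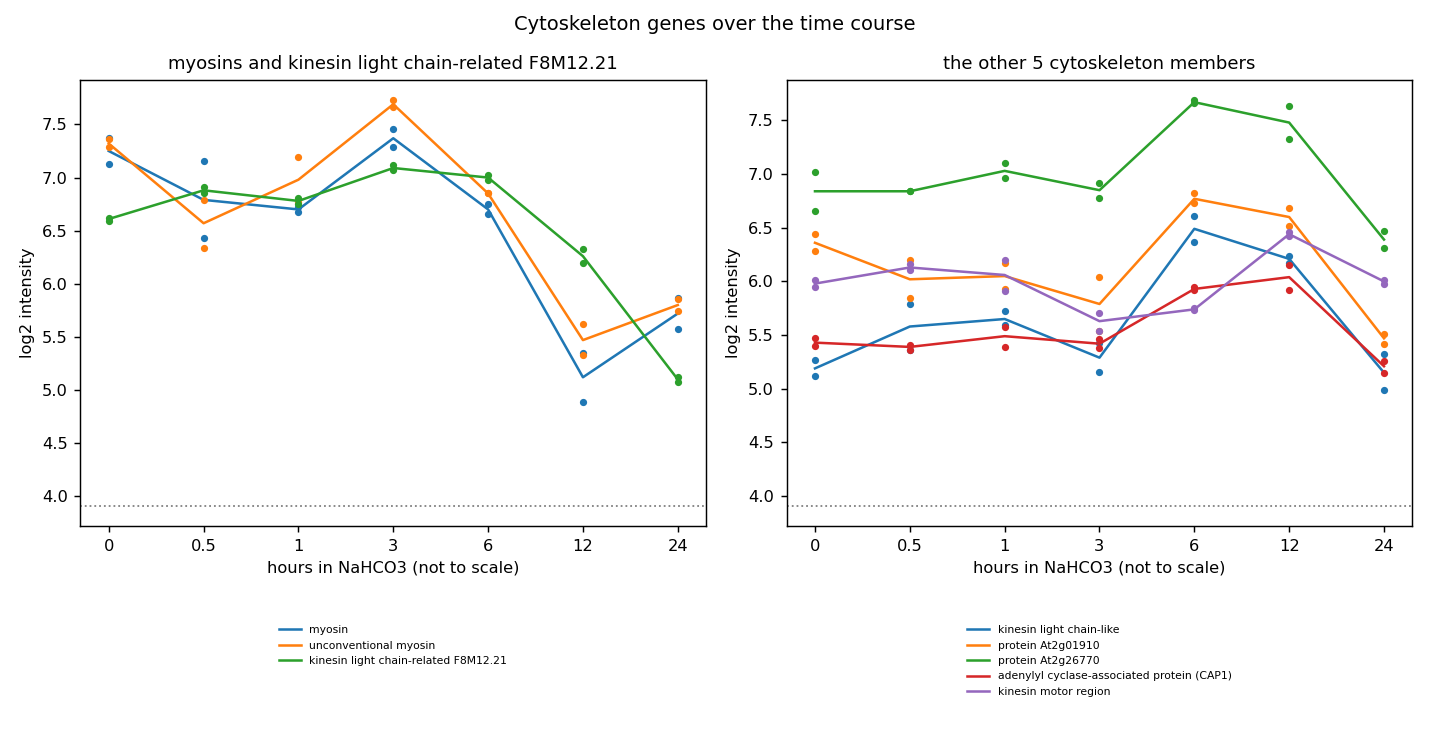
Log2 intensity over the 7 time points for the 8 cytoskeleton members, with the myosins and kinesin light chain-related F8M12.21 on the left and the other 5 on the right. Points are single arrays, lines join the means of the 2 arrays, the time axis is not to scale and the dotted line is the background level of 3.91. The myosins drop between 6 and 12 h, by 1.58 and 1.37, while 4 of the 5 on the right were called higher at 12 h or 6 h than at 0 h.

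Of the 15 other described members, 10 were called higher and 3 lower at 6 h, with 8.67% and 12.1% of all tested probe sets. At 24 h 0 were called higher and 7 lower, with 6.07% and 19.6% of all. Among these 15 the widest span was that of clone MTG10 protein, whose function the study's tables do not give. Its values were 8.33 and 7.97 at 0 h, 8.47 and 8.28 at 0.5 h, 8.73 and 8.73 at 1 h, 7.77 and 8.41 at 3 h, 5.93 and 6.24 at 6 h, 5.55 and 5.68 at 12 h, then 8.42 and 8.8 at 24 h. It was lower by 2.07 at 6 h and 2.54 at 12 h with an SE of 0.24, a 4.19-fold and a 5.8-fold lower level, and was back at 0 h levels or above by 24 h, with a change of 0.46. The 4 arrays of 6 and 12 h stood apart from the other 10, and the change at 24 h was called only under quantile normalization and median centring, with 0.61 and 0.68.

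An EF-hand protein related to adhesins, of a family that binds calcium, had 5.13 and 5.08 at 0 h, 5.46 and 5.25 at 0.5 h, 5.42 and 4.86 at 1 h, 5.54 and 5.73 at 3 h, 5.96 and 6.17 at 6 h, 5.47 and 5.21 at 12 h, then 3.85 and 2.79 at 24 h. It was higher by 0.96 at 6 h with an SE of 0.31 and, with both arrays at 24 h under the background level, at least 2.29-fold lower at that time than at 0 h. The 6 h call was lost without any 1 of the 4 arrays compared, with 0.85 to 1.07. Protein F26F24.7 read 3.65 and 4.48 at 0 h, 4.7 and 4.8 at 0.5 h, 4.99 and 4.73 at 1 h, 5.25 and 4.95 at 3 h, 6.01 and 5.97 at 6 h, 3.89 and 3.77 at 12 h, then 3.12 and 4.04 at 24 h. The level was higher by 1.04 at 3 h and 1.93 at 6 h with an SE of 0.32, but 1 array of 0 h, both of 12 h and 1 of 24 h lay under the background level, so these rises are estimates that rest in part on an array under background. With arrays under background set to that level, the rise was at least 0.91 at 3 h and 1.79 at 6 h. The 3 h call was lost without 0 h replicate 1 or either 3 h array, with 0.62 to 1.19.

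Histone H1, the linker histone that packs chromatin, entered the category through 2 probe sets of 1 sequence cluster, with a correlation of 0.99 over the time means. Their changes were -0.65 and -0.66 at 3 h and -1.27 and -1.21 at 6 h, with SEs of 0.17 and 0.15. By 12 h both were back, at 0.3 and 0.28. From 6 h to 12 h they rose by 1.57 and 1.49. The 3 h calls were lost without either 0 h array or 3 h replicate 2, with -0.66 to -0.52 and -0.69 to -0.54.

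The other pairs of 1 description behaved alike or apart. The RING zinc finger probe sets 3 and 4, of 1 cluster, were higher at 6 h by 0.82 and 0.76 and lower at 24 h by 0.68 and 0.97, with SEs of 0.22 and 0.16 and a correlation of 0.96. The calls of probe set 3 were lost in 3 of the fits without 1 array at 6 h and in 2 at 24 h, with 0.64 to 0.86 and -0.58 to -0.5, and at 24 h under median centring, with -0.46. RING domains are found in enzymes that attach ubiquitin to other proteins. The 2 RING zinc finger ankyrin proteins had a correlation of 0.28. Protein a was higher by 1.02 at 6 h and 1.27 at 12 h, with an SE of 0.15. Protein b was higher by 0.89 at 3 h and 0.68 at 6 h and lower by 0.56 at 12 h and 1.37 at 24 h, with an SE of 0.15.

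The remaining described members were a LysM protein with a lipid anchor, a nuclear matrix constituent protein-like probe set, an ankyrin repeat protein and proteins T4K22.7, AT5g53330 and F24B22.30. LysM domains bind chitin-like sugars. The LysM protein was higher by 0.84 at 6 h and lower by 0.69 at 12 h, with an SE of 0.17. These, apart from F24B22.30, are outside the rule for named members. The others had changes between -1.17 and 1.28 at 12 or 24 h. The nuclear matrix constituent protein-like probe set accounted for the lowest of these, at 24 h, with an SE of 0.14, and F24B22.30 for the highest, at 12 h, with an SE of 0.29. Calls of T4K22.7 and the nuclear matrix constituent protein-like probe set at 3 and 6 h, of the LysM protein at 3 h and of AT5g53330 at 24 h were lost in 3 to 10 of the fits without 1 array.

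Of the 12 members without a description, 2 were called higher and 2 lower at 6 h, with 8.67% and 12.1% of all tested probe sets. At 24 h 3 were called higher and 7 lower, with 6.07% and 19.6% of all. Gma.10606.1.S1_at had 6.63 and 6.88 at 0 h, 6.63 and 6.86 at 0.5 h, 7.07 and 6.26 at 1 h, 5.77 and 4.05 at 3 h, 6.14 and 5.8 at 6 h, 7.84 and 8.13 at 12 h, then 6.74 and 6.96 at 24 h. It was lower by 1.85 at 3 h and higher by 1.23 at 12 h with an SE of 0.46, but the 3 h replicates were 1.72 apart and the call there was lost without either 0 h array or 3 h replicate 2, with -1.97 to -0.98, and at 12 h without any 1 of the 4 arrays compared, with 1.08 to 1.38. GmaAffx.58144.1.S1_at read 7.84 and 8.06 at 0 h, 8.14 and 7.76 at 0.5 h, 7.75 and 7.74 at 1 h, 8.52 and 8.71 at 3 h, 8.63 and 8.66 at 6 h, 6.08 and 6.3 at 12 h, then 6.89 and 7.02 at 24 h. It was higher by 0.67 at 3 h and 0.7 at 6 h and lower by 1.76 at 12 h and 1 at 24 h, with an SE of 0.17. Its calls at 3 and 6 h were lost in 3 and 2 of the fits without 1 array, with 0.55 to 0.78 and 0.58 to 0.68.

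GmaAffx.78987.1.S1_at had 7.93 and 8.14 at 0 h, 8.48 and 8.33 at 0.5 h, 8.11 and 7.84 at 1 h, 7.89 and 7.81 at 3 h, 8.66 and 8.27 at 6 h, 6.03 and 6.52 at 12 h, then 7.0 and 7.09 at 24 h. It was lower by 1.76 at 12 h and 0.99 at 24 h with an SE of 0.21, and the change of 0.43 at 6 h was called only under median centring. GmaAffx.37930.1.A1_at was lower by 0.74 at 6 h, 1.66 at 12 h and then 1.28 at 24 h, with an SE of 0.21, and the 6 h call was lost if 0 h replicate 2 or 6 h replicate 2 was left out, with -0.62 to -0.58. Higher levels at 6, 12 and 24 h alike were called in Gma.11871.2.S1_at, by 1.31, 1.58 and 1.37 with an SE of 0.42. Without 0 h replicate 1 none of these 3 calls held, with changes of 0.87 at 6 h, 1.14 at 12 h and then 0.93 at 24 h. Gma.9727.1.S1_at was the 1 member called higher at 0.5 h, by 0.67, and was so again at 24 h, by 0.8, with an SE of 0.17. The 0.5 h call was lost without any 1 of the 4 arrays compared, with 0.65 to 0.7, and these last 2 probe sets were named after their values were seen. The other 6 had changes of -1.85 to 0.82 at 24 h, and calls of 3 of them were lost in 1 to 8 of the fits without 1 array.

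Wall and cytoskeleton genes outside the members were looked up by gene symbol, and the rule for the symbols did not use their values. The annotation named 21 tested probe sets of beta-tubulin (3), actin-depolymerizing factor and profilin (7), proline-rich protein (5) and endo-1,4-beta-glucanase (6). At 6 h 7 were called higher and 1 lower, with 8.67% and 12.1% of all tested probe sets. At 12 h 2 were called higher and 0 lower, with 7.95% and 16.4% of all. At 24 h 1 of each was called, with 6.07% and 19.6% of all. At 3 h 0 were called higher and 1 lower, with 5% and 12% of all. At 0.5 and 1 h the counts were 0 in this fit, with 2.26% and 3.27%, then 0.179% and 0.375% of all. No time had a call for 12 of the 21. All 6 probe sets of CEL12, an endo-1,4-beta-glucanase, were called higher at 6 h by 0.72 to 1.01, at limma adjusted p-values of 0.0161 to 0.105. Several of them stem from the same sequence clusters and may measure 1 gene. The CEL12 probe set GmaAffx.91310.1.S1_s_at read 8.06 and 8.41 at 0 h, 8.14 and 8.51 at 0.5 h, 8.15 and 8.49 at 1 h, 8.69 and 8.6 at 3 h, 9.2 and 9.28 at 6 h, 8.85 and 8.27 at 12 h, then 7.42 and 7.72 at 24 h. Its SE was 0.24, and its arrays at 6 h lay above all others. At 24 h it was lower by 0.67. The count of 8 calls at 6 h was 3 without 0 h replicate 1, 3 without 6 h replicate 2 and 0 without the 4 arrays low in nodulins.

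The 3 beta-tubulin probe sets, for a subunit of microtubules, did not move together. TUBB3 was higher by 0.66 at 6 h and 1.19 at 12 h, with an SE of 0.26 and limma adjusted p-values of 0.14 and 0.014. TUBB2 was lower by 0.6 at 3 h and 0.63 at 6 h, with an SE of 0.17 and adjusted p-values of 0.0748 and 0.0437 in limma, and the third, TUBB, was called at no time. None of the 7 probe sets of actin-depolymerizing factor ADF1 and profilin PRO2, which turn over actin filaments, was called by limma against 0 h at any stress time. Their changes ran from -1.37 to 0.8, with SEs of 0.14 to 0.68. The lowest were those of PRO2 GmaAffx.90695.1.S1_at and ADF1 GmaAffx.88908.1.S1_at at 0.5 h, -1.37 and -1.28, with SEs of 0.5 and 0.47. From 6 h to 12 h both were called lower, by 1.12 and 1.06. Of the 5 for proline-rich wall proteins, PRP1 alone was called, by 1.31 at 24 h with an SE of 0.45 and a limma adjusted p of 0.084.

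A further 44 tested probe sets carry a wall or cytoskeleton description in the study's tables, 38 of them in tables of probe sets chosen for rising at single times and 6 under other categories of the time course list, so their directions are a description too. At 6 h 26 of the 44 were called higher and 0 lower, with 8.67% and 12.1% of all tested probe sets. At 24 h 4 were called higher and 14 lower, with 6.07% and 19.6% of all. At 0.5 h 1 was called higher and 5 lower, with 2.26% and 3.27% of all. The 1 called higher then was a glycosyl hydrolase of family 1, GmaAffx.87547.2.S1_at, by 2.19. This probe set was also higher by 1.67 at 3 h and 1.39 at 6 h, with an SE of 0.22. It was lower by 0.95 at 12 h and 1.92 at 24 h. Some of the 44 moved like members of the same description and some did not. A second CSLE1 probe set, GmaAffx.60654.1.S1_s_at, was higher by 0.66 at 3 h and lower by 1.75 at 12 h, with an SE of 0.25. A caffeoyl-CoA O-methyltransferase, GmaAffx.92070.1.S1_at, was higher by 2.09 at 6 h, with an SE of 0.43. A pectinesterase, GmaAffx.73765.1.S1_s_at, was lower by 1.79 at 24 h, with an SE of 0.36. Another, Gma.15523.1.S1_s_at, was higher by 0.74 at 6 h and lower by 0.94 at 24 h, with an SE of 0.24. Pectin methylesterase GmaAffx.92828.1.S1_at was higher by 0.6 at 6 h, with an SE of 0.19. Unlike the polygalacturonase members, polygalacturonases GmaAffx.72116.2.S1_at and GmaAffx.82427.1.S1_at were higher at 12 h, by 0.57 and 0.67, with SEs of 0.2 and 0.27. The former was also higher at 6 h, by 0.54. A pectate lyase, Gma.1326.1.S1_at, which cuts pectin without water, was higher by 1.51 at 12 h and 1.3 at 24 h, with an SE of 0.18. A second CESA3 probe set, Gma.10796.2.S1_x_at, was lower by 0.75 at 0.5 h and higher by 0.63 at 6 h, with an SE of 0.21, and its changes of 0.15 at 12 h and -0.38 at 24 h were not called, unlike those of the CESA3 member. Of 2 other myosin probe sets, Gma.7351.1.S1_at was higher by 0.45 at 6 h and lower by 0.54 at 24 h, with an SE of 0.18, and GmaAffx.33716.1.S1_at higher by 0.89 and lower by 0.8, with an SE of 0.3, while their changes at 12 h, 0.06 and 0.1, were not called.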

How the data were processed

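The authors hybridised root RNA to 14 arrays and made probe set intensities with dChip's perfect match model. 1 array of each time was scaled to the median of all arrays and the other fitted to it by an invariant set, and the deposited values are linear intensities. They were floored at 1, put on the log2 scale and not normalized again. Soybean probe sets were tested where the mean log2 value was above 3.91, the 95th percentile of 23350 pathogen probe sets, and a filter on variation, the median over times of SD over mean, lay between 0 and 0.5. A fit of 7 time groups in limma 3.58.1 (R 4.3.3) gave the changes, their SEs and p-values adjusted after Benjamini-Hochberg over 28567 probe sets. The number of arrays limits the precision. On simulated data for the 6 h comparison, calls were made for 36 of 100 genes given a log2 change of 1, for 85 of 100 given 2 and for 23 unchanged ones, out of 28567. No other genes were changed there, while in the data 8.67% of probe sets were called higher and 12.1% lower at 6 h. With fewer changed genes the adjusted limit is harder to pass, so these simulated shares cannot be carried over to the data.

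Members and lists were chosen with earlier results of these data known. The rule for named members gives values for all in 5 groups, for the 4 with the widest range and all pairs of 1 description in the rest, and for those just inside the limit, 42 in all, and any of the other 21 that are named were added after their values were seen. The related genes were chosen by symbol and by the study's descriptions once the annotation had been read. The study's tables served for the category and descriptions, and its own test values were not used. Alternatives were quantile normalization, median centring, a floor of 16, no filter, only the 4 arrays compared, a replicate block, the methods' t-test, and leaving out each array. Leaving out both arrays with low hybridization controls, or the 4 low in nodulins, was chosen after seeing the data.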

Additional observations from a re-analysis of the deposited data

How the results depend on the processing

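Of 152 called changes of the 63 members, none turned its direction under the alternatives run for single members. These alternatives reuse arrays behind the calls, so they are no separate test of the direction. Calls were lost for 11 under quantile normalization, 12 under median centring, 0 with a floor of 16 and 69 when some array was left out. With the replicate number as a block (replicate block), 2 calls were lost and 1 was gained, among them protein At4g02330 at 3 h, with a change of 1.1. Over the tested probe sets the correlation of replicate differences between times ran from -0.349 to 0.295 and passed 0.1 in 6 of 21 pairs of times. The main fit did not pair the arrays by replicate number. This check held only 3 of the 13 nodulin probe sets, most of which were higher on replicate 1 at 0.5, 1, 3 and 6 h. It therefore does not settle whether the replicate number pairs arrays. With 2 arrays a time, the median SE of a change was 0.236, which limits what could be called.

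The count of members called at 0.5 h was 2, and 1 under quantile normalization, 1 with no filter, 0 with only the 4 arrays compared and 0 by the methods' t-test after Benjamini-Hochberg. At 1 h it was 0, and 1 under quantile normalization, 1 under median centring and 2 with a floor of 16. The methods' t-test after adjustment gave 11 members at 6 h, 0 at 3, 12 and 24 h and 18 from 6 h to 12 h. At its unadjusted limit of p under 0.05 it gave 7, 14, 27, 43, 37, 28 and 40 in the order of the 7 comparisons. Leaving out 1 array gave 0 to 3 members at 0.5 h, 0 to 2 at 1 h, 5 to 30 at 3 h, 24 to 41 at 6 h, 30 to 44 at 12 h, 29 to 42 at 24 h and 37 to 46 from 6 h to 12 h. Without the 4 arrays low in nodulins the count was 14 at 6 h and 0 at both 0.5 and 3 h. Counts under the remaining alternatives stayed within 1.5 times. Apart from the fewer arrays, the cause of these shifts was not tested.

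For the 21 genes found by symbol, quantile normalization, median centring and the floor of 16 each gave 1 call at 0.5 h instead of 0. At 3 h, with 1 call, median centring gave 0 and the t-test 0. At 6 h, with 8, the t-test gave 0. At 12 h, with 2, quantile normalization gave 6, median centring 7, the 4 arrays alone 1 and the t-test 0. At 24 h, with 2, median centring gave 4 and the t-test 0. Leaving out 1 array gave 0 to 2, 0 to 0, 0 to 1, 3 to 8, 1 to 3 and 0 to 2 calls from 0.5 to 24 h. Without the 4 arrays low in nodulins the counts were 0 at 3 h, 0 at 6 h, 1 at 12 h and then 1 at 24 h.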
